A study of Mus musculus with 15 samples.

Results

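Ctgf, Lrg1, Serpina3n, Lcn2 and Cd14 are 5 genes that were higher in microvessels of the hemisphere opposite a brain tumour than in microvessels of sham mice. They are 5 of the 27174 genes in the deposited table and were found there by symbol, 1 row each. They were chosen by that measured difference in these same libraries, so their values in the opposite hemisphere and in sham mice are given as a description with no test. All 5 were among the 19668 genes that passed the filter on low scores.

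The data are RNA-seq libraries of brain microvessels from adult wild-type mice, labelled BL6/57. The 15 libraries form 5 groups of 3, and each library pools 3 mice, so p-values measure the spread between pools. Triple therapy libraries came from the tumour region after Aflibercept-AMG386 and anti-PD1. Aflibercept is a decoy receptor that binds VEGF, AMG386 is a peptibody that neutralises angiopoietins, and anti-PD1 blocks a checkpoint receptor of T cells. Dual therapy libraries came from the tumour region after Aflibercept-AMG386 alone, and untreated tumour libraries from the same region after control IgG. Opposite hemisphere libraries came from the non-tumour side of mice given control IgG, and sham libraries from healthy operated mice. Microvessels of tumour-bearing mice were taken 21 days after transplantation. No day is given for sham libraries, and their titles name no control IgG. A difference in time, antibody dosing or transplantation therefore cannot be told apart from the tumour in comparisons with sham.

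Each protein works outside the cell or at its surface. Ctgf, now also called Ccn2, is a matricellular protein of the CCN family and a standard target of YAP and TAZ, the co-activators that report mechanical and growth signals, and of TGF-beta. Lrg1 is a secreted leucine-rich glycoprotein that binds endoglin and alters TGF-beta signalling in mouse endothelial cells. Serpina3n, a secreted inhibitor of serine proteases, and Lcn2, a lipocalin that binds bacterial siderophores, are acute-phase proteins and well-known markers of reactive brain tissue. Cd14 is the co-receptor that passes lipopolysaccharide to Tlr4. Cytokines that signal through STAT3, IL-6 among them, are known to induce several acute-phase genes.

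The scores are normalised whole numbers, and the number of reads per library was estimated at 6365690 to 18324229. The 15 endothelial markers summed to 157411 to 202055 in triple therapy, 163593 to 216002 in dual therapy, 105462 to 154122 in untreated tumour, 192411 to 224286 in the opposite hemisphere and 181651 to 189293 in sham libraries. Pericyte markers were present in every library, while markers of neurons, astrocytes and oligodendrocytes were also well above 0, so the material was not vessels alone. In bulk RNA of this kind, fewer cells of a type and less RNA per cell cannot be told apart. At an adjusted p under 0.05 in limma, 22.3% of the 19668 genes tested differed between dual therapy and untreated tumour, 32.2% between triple therapy and untreated tumour, 0.869% between triple and dual therapy, and 0.432% between the opposite hemisphere and sham. Of those calls, 54.3%, 53.5%, 60.2% and 58.8% in the same order were higher. After each library was scaled to its endothelial markers, 9.74% of the dual therapy calls and 27.9% of the triple therapy calls were higher, and after quantile normalisation 80.7% of the opposite hemisphere calls were. The endothelial scaling moved the median of all genes by more than 0.1 in several comparisons. That median became -0.38 for dual therapy and -0.28 for triple therapy against untreated tumour, 0.12 for triple against dual therapy, and 0.44 for untreated tumour against the opposite hemisphere.

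Ctgf lies at chr10:24595442-24598683 on the plus strand of GRCm38, with 5 exons. Its score was 1129, 1031 and 1195 in triple therapy, 1308, 997 and 1151 in dual therapy, 2764, 3168 and 2055 in untreated tumour, 2795, 3961 and 2718 in the opposite hemisphere, and 670, 999 and 879 in sham. The untreated tumour and the opposite hemisphere were both high and overlapped, and no library of either overlapped any of the treated or sham libraries. Group means were 1118 ± 82.5 in triple therapy, 1152 ± 156 in dual therapy, 2662 ± 563 in untreated tumour, 3158 ± 696 in the opposite hemisphere and 849.3 ± 166 in sham (SD, n = 3 each). From the highest mean to the lowest, the order was opposite hemisphere, untreated tumour, dual therapy, triple therapy and sham. Neighbours in that order overlapped, apart from dual therapy below untreated tumour and sham below triple therapy. The opposite hemisphere was 1.89 ± 0.17 log2 units above sham (SE). Each SE of a log2 difference given here uses the spread of the gene pooled over all 5 groups. Untreated tumour differed from the opposite hemisphere by -0.25 ± 0.17, and by 0.18 after endothelial scaling, where the median of all genes was 0.44. A gene of unnamed function on the other strand, Gm15270, overlaps Ctgf and scored 0 to 15. The strand setting of the count is not given, and the part of overlapping reads in the Ctgf score was not tested.

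Lrg1 lies at chr17:56119680-56121946 on the minus strand, with 2 exons. Its score was 189, 315 and 135 in triple therapy, 288, 142 and 181 in dual therapy, 434, 538 and 461 in untreated tumour, 500, 380 and 127 in the opposite hemisphere, and 38, 47 and 30 in sham. Every other library was above every sham library, and the third opposite hemisphere library lay below all treated libraries. The means were 213 ± 92.4 in triple therapy, 203.7 ± 75.6 in dual therapy, 477.7 ± 54 in untreated tumour, 335.7 ± 190 in the opposite hemisphere and 38.33 ± 8.5 in sham. Untreated tumour was highest, followed by the opposite hemisphere, triple therapy, dual therapy and sham, and of these neighbours only dual therapy and sham did not overlap. The opposite hemisphere was 2.91 ± 0.39 log2 units above sham, and untreated tumour 0.72 ± 0.39 above the opposite hemisphere.

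Serpina3n lies at chr12:104406729-104414329 on the plus strand, with 5 exons. Its score was 638, 1028 and 644 in triple therapy, 464, 380 and 720 in dual therapy, 1474, 555 and 729 in untreated tumour, 838, 252 and 127 in the opposite hemisphere, and 39, 28 and 43 in sham. All 12 libraries from tumour-bearing mice were above the sham libraries, and the first opposite hemisphere library alone reached the range of the tumour region. Means were 770 ± 223 in triple therapy, 521.3 ± 177 in dual therapy, 919.3 ± 488 in untreated tumour, 405.7 ± 380 in the opposite hemisphere and 36.67 ± 7.77 in sham. The order ran from untreated tumour through triple therapy, dual therapy and the opposite hemisphere to sham, and each pair of neighbours overlapped except the last. Here the opposite hemisphere was 3.02 ± 0.47 log2 units above sham, and untreated tumour 1.49 ± 0.47 above the opposite hemisphere. Serpina3n belongs to a cluster of near-identical genes, and reads shared with its copies could have been split or dropped in the authors' counting. Of these, Serpina3g scored 220 to 899 in triple therapy, 592 to 818 in dual therapy, 435 to 792 in untreated tumour, 16 to 198 in the opposite hemisphere and 33 to 44 in sham.

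Lcn2 lies at chr2:32384633-32387797 on the minus strand, with 6 exons. Its score was 175, 236 and 155 in triple therapy, 168, 169 and 149 in dual therapy, 213, 142 and 194 in untreated tumour, 385, 192 and 74 in the opposite hemisphere, and 49, 74 and 22 in sham. The third opposite hemisphere library tied with the second sham library, so these groups overlapped, while the tumour region was narrow whether treated or not. Means were 188.7 ± 42.2 in triple therapy, 162 ± 11.3 in dual therapy, 183 ± 36.8 in untreated tumour, 217 ± 157 in the opposite hemisphere and 48.33 ± 26 in sham. The opposite hemisphere mean was the highest, followed by triple therapy, untreated tumour and dual therapy, and all 4 overlapped. Only sham stood below the tumour region without overlap. The opposite hemisphere was 2.01 ± 0.44 log2 units above sham, and the mean log2 values of untreated tumour and the opposite hemisphere differed by 0.03 ± 0.44, although the mean score was lower in untreated tumour.

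Cd14 lies on chromosome 18, at 36725074 to 36726736 on the minus strand, with 2 exons. Its score was 82, 133 and 75 in triple therapy, 170, 133 and 129 in dual therapy, 246, 187 and 195 in untreated tumour, 117, 183 and 49 in the opposite hemisphere, and 31, 19 and 34 in sham. Untreated tumour was above all other libraries, though only 4 units above the second opposite hemisphere library, and sham was below all others. Means were 96.67 ± 31.7 in triple therapy, 144 ± 22.6 in dual therapy, 209.3 ± 32 in untreated tumour, 116.3 ± 67 in the opposite hemisphere and 28 ± 7.94 in sham. Below untreated tumour, dual therapy, the opposite hemisphere and triple therapy overlapped in that order of means. The opposite hemisphere was 1.87 ± 0.36 log2 units above sham, and untreated tumour 1.02 ± 0.36 above the opposite hemisphere.

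**Figure D1:**
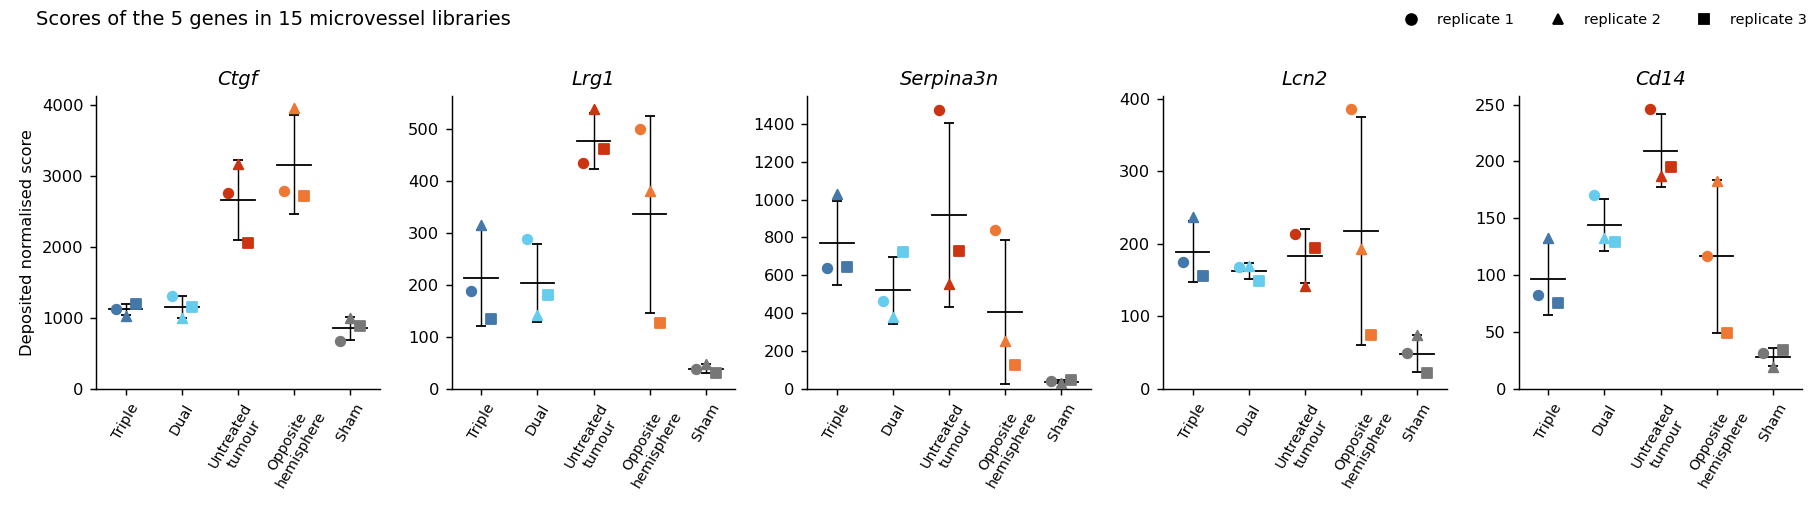
Deposited normalised score of each gene in the 15 libraries, on a linear axis that starts at 0 and has its own range for each gene. Points are libraries, shaped by replicate number, and bars are the group mean and SD of 3; Ctgf is high in untreated tumour and the opposite hemisphere only, and the sham libraries are the lowest group mean for all 5 genes.

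In 4 of the 5 genes, all but Lcn2, no opposite hemisphere library overlapped a sham library; 8.5% of all genes tested were separated in that direction, and since the genes were picked for this contrast nothing is read from the count. Per kilobase of exon, the mean score in sham was 296.9 for Ctgf and between 16.17 for Cd14 and 27.23 for Lrg1 for the others. In the opposite hemisphere it was 1104 for Ctgf, 238.4 for Lrg1, 196.5 for Serpina3n, 82.73 for Lcn2 and 67.17 for Cd14. Ctgf was the one gene of the group with a high level in healthy vessels. The others rested on few reads there: an estimated 10 to 38 for Cd14, 15 to 48 for Serpina3n, 20 to 61 for Lcn2 and 25 to 47 for Lrg1, against 537 to 828 for Ctgf.

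The 3 opposite hemisphere libraries did not carry the increase equally. The third was the lowest of its group for all 5 genes. Within the group the highest library was 1.46 times the lowest for Ctgf, 3.73 times for Cd14, 3.94 times for Lrg1, 5.2 times for Lcn2 and 6.6 times for Serpina3n. The SD of log2(score + 1) in this group was 1.04 for Lrg1, 1.37 for Serpina3n, 1.19 for Lcn2 and 0.956 for Cd14. In sham it was 0.316, 0.315, 0.867 and 0.434 in the same order. The pooled SEs given for these genes therefore understate the spread of the opposite hemisphere. After subtraction of group means on the log2 scale, Pearson r across the 15 libraries was 0.774 between Lrg1 and Lcn2, 0.665 between Lrg1 and Cd14 and 0.57 between Lrg1 and Serpina3n. For Serpina3n it was 0.612 with Lcn2 and 0.555 with Cd14, and between Lcn2 and Cd14 it was 0.38. Ctgf gave -0.117 to 0.268 with the other genes. Several of these values rested on the opposite hemisphere libraries. Over the other 12 libraries, a subset chosen after seeing the data, r was 0.064 between Lrg1 and Serpina3n, 0.017 between Serpina3n and Lcn2, and -0.182 between Lcn2 and Cd14. It was 0.49 between Lrg1 and Lcn2, 0.346 between Lrg1 and Cd14 and 0.621 between Serpina3n and Cd14. These values describe libraries that share their normalisation.

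**Figure D2:**
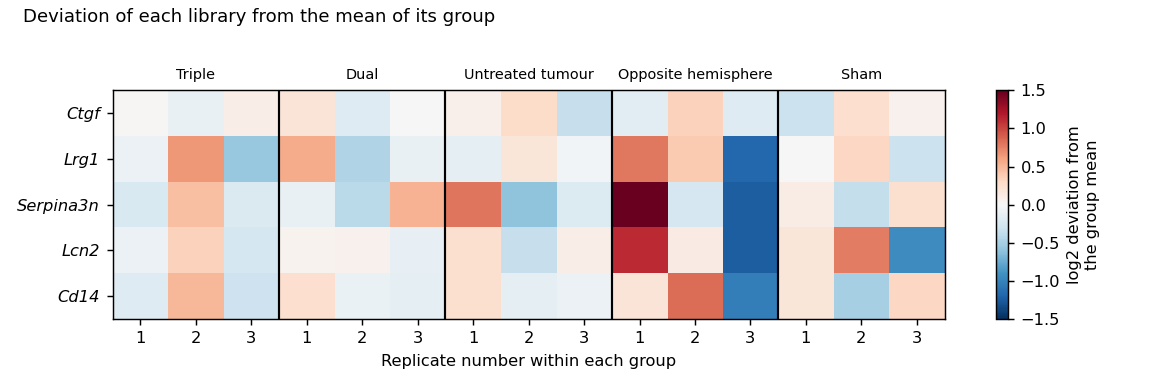
Deviation of log2(score + 1) from the mean of its group, by gene (rows) and library (columns, replicates 1 to 3 in each group). Red is above and blue below the group mean; Lrg1, Serpina3n, Lcn2 and Cd14 are all lowest in the third opposite hemisphere library, where they lie 1.04 to 1.24 log2 units below the mean.

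Markers of blood and brain cells were compared in the same libraries. Neutrophils store Lcn2 in their granules; 9 of 12 neutrophil markers were in the table, and they summed to 18 to 59 in the opposite hemisphere and 21 to 50 in sham, with up to 4 of the 9 at 0 in an opposite hemisphere library and up to 6 in a sham library. The 12 monocyte and macrophage markers, cells that carry Cd14, summed to 5199 to 5929 in the opposite hemisphere and 4709 to 5175 in sham. Of these 12, 10 had positive differences, with a median of 0.31 log2 units. Chil3 was the single one called, higher in the opposite hemisphere at low scores of 10, 36 and 12 against 2, 0 and 0 in sham. Microglial markers summed to 1996 to 2396 in the opposite hemisphere and 2004 to 2390 in sham. Astrocytes make Serpina3n and Lcn2 in injured brain, and the 10 astrocyte markers summed to 39483 to 49052 in the opposite hemisphere, below the 52616 to 76805 of sham. Neuron markers were also lower, at 13314 to 15926 in the opposite hemisphere against 19855 to 26664 in sham, as were oligodendrocyte markers, at 13451 to 14053 against 21795 to 29852, and red cell markers, at 1433 to 2949 against 3280 to 4130. Markers of ependyma and choroid plexus ran the other way, at 40681 to 84024 in the opposite hemisphere against 22865 to 24955 in sham, with positive differences in 5 of 6 genes and a median of 0.88 log2 units. No single gene of these 5 lists was called. The 12 T and NK cell markers summed to 95 to 182 in the opposite hemisphere and 67 to 130 in sham, also with no call. Of these 12, 9 had positive differences, with a median of 0.79 log2 units. The part of these other cells in the values of the 5 genes was not tested.

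Among the genes around these 5 in their known pathways, the IL-6 and STAT3 list had more calls by number in the opposite hemisphere than any other pathway list examined, though list sizes differed. Of 16 tested genes 4 rose, where 0.432% of all genes were called in either direction, none fell and 14 had positive differences, with a median of 0.69 log2 units against -0.01 over all genes. Some positive differences rested on the second opposite hemisphere library or on low scores. Lif scored 5, 219 and 6 in the opposite hemisphere and 4 to 9 in sham. Il11 scored 3, 124 and 0 against 0 to 2, and Il6 3, 10 and 0 against 0 to 3. Socs3, the feedback inhibitor of STAT3 signalling, scored 96 to 392 in the opposite hemisphere and 43 to 59 in sham (log2 difference 2.0 ± 0.33, adjusted p = 0.0102). Cebpd, a transcription factor of the acute phase, rose by 1.08 ± 0.18 (adjusted p = 0.00899), its relative Cebpb by 1.14 ± 0.23 (adjusted p = 0.0354), and Osmr, the receptor of oncostatin M, by 0.76 ± 0.14 (adjusted p = 0.0208). The number of these genes called was 1 without the first opposite hemisphere library, 2 without the second and 5 without the third; it was 3, 1 and 2 without the first, the second and the third sham library. Cebpd was called in each of these fits. No gene of the list was called when only these 2 groups entered the fit, or without the trend between mean and variance, and 2 were called after endothelial scaling. The list was chosen with earlier results of these libraries known.

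The list of YAP and TAZ targets, which Ctgf represents, had 2 of 20 genes up and none down. Cyr61, the CCN family member closest to Ctgf in its use as a YAP marker, scored 394 to 918 in the opposite hemisphere and 118 to 229 in sham (1.63 ± 0.30, adjusted p = 0.0205). It was also the 1 gene called of the 3 other CCN family genes tested. Igfbp3, which binds insulin-like growth factors, scored 2715 to 5320 in the opposite hemisphere and 1395 to 1933 in sham (1.23 ± 0.22, adjusted p = 0.0193). Without 1 library the list had 1 call in 5 fits and 0 without the third sham library. After endothelial scaling it had 0 calls, with adjusted p = 0.0541 for Cyr61 and 0.147 for Igfbp3. It also had 0 calls with only these 2 groups in the fit (adjusted p = 0.0917 for Cyr61 and 0.0791 for Igfbp3) and without the variance trend (0.157 and 0.156). The other 18 targets, such as Axl and Amotl2, were not called.

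Of 11 genes known to rise in reactive astrocytes of any kind, Osmr and Cxcl10, a chemokine induced by interferon, rose; Cxcl10 scored 27 to 43 in the opposite hemisphere and 1 to 9 in sham (3.16 ± 0.53, adjusted p = 0.0113), a call lost without the first opposite hemisphere library (adjusted p = 0.0653), the second sham library (0.0694) or the third (0.0816), with only these 2 groups (0.0742) or without the trend (0.122). None of 12 acute-phase genes was called, although 11 had positive differences. Complement C3 of that list scored 54 to 186 in the opposite hemisphere and 20 to 33 in sham (1.99 ± 0.46, adjusted p = 0.0677). None of 20 genes of TGF-beta and BMP signalling, 16 genes of the lipopolysaccharide receptor pathway, 13 genes of endothelial activation, 14 receptors and binding partners of the 5 proteins, or 3 Serpina3 cluster genes was called. The 2 most abundant genes of each of these lists are given next. Cp, the ferroxidase ceruloplasmin and with C3 the most abundant of the acute-phase list, scored 19345 to 25121 in the opposite hemisphere and 14774 to 15921 in sham (0.53 ± 0.13, adjusted p = 0.0835). Vwf, the von Willebrand factor of endothelial cells, scored 16283 to 22767 in the opposite hemisphere and 11246 to 14412 in sham (0.58 ± 0.17, adjusted p = 0.145). Cxcl12, a chemokine that holds leukocytes at vessels, scored 7961 to 10942 in the opposite hemisphere and 13024 to 14645 in sham (-0.55 ± 0.20, adjusted p = 0.245).

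Of the TGF-beta and BMP receptors, Tgfbr2 differed by 0.27 ± 0.11 (adjusted p = 0.342) and Bmpr2 by 0.04 ± 0.11 (adjusted p = 0.931) between the opposite hemisphere and sham. In the lipopolysaccharide pathway, the NF-kappaB inhibitor Nfkbia differed by -0.20 ± 0.17 (adjusted p = 0.726) and the NF-kappaB subunit Nfkb1 by 0.03 ± 0.14 (adjusted p = 0.966). Among binding partners, the integrin chain Itgb1 differed by 0.12 ± 0.11 (adjusted p = 0.755) and Lrp1, a receptor that takes up Ctgf, by -0.01 ± 0.13 (adjusted p = 0.994). Of the Serpina3 cluster, Serpina3g differed by 0.61 ± 0.59 (adjusted p = 0.763) and Serpina3f, at scores of 7 to 58 in the opposite hemisphere and 2 to 6 in sham, by 2.11 ± 0.60 (adjusted p = 0.129). Tlr4, the signalling partner of Cd14, scored 298 to 371 in the opposite hemisphere and 192 to 284 in sham. Eng, the endoglin that Lrg1 binds, scored 3138 to 4441 in the opposite hemisphere and 3094 to 3757 in sham. Tlr4 and Eng were chosen as partners of the members after their values were seen.

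**Figure D3:**
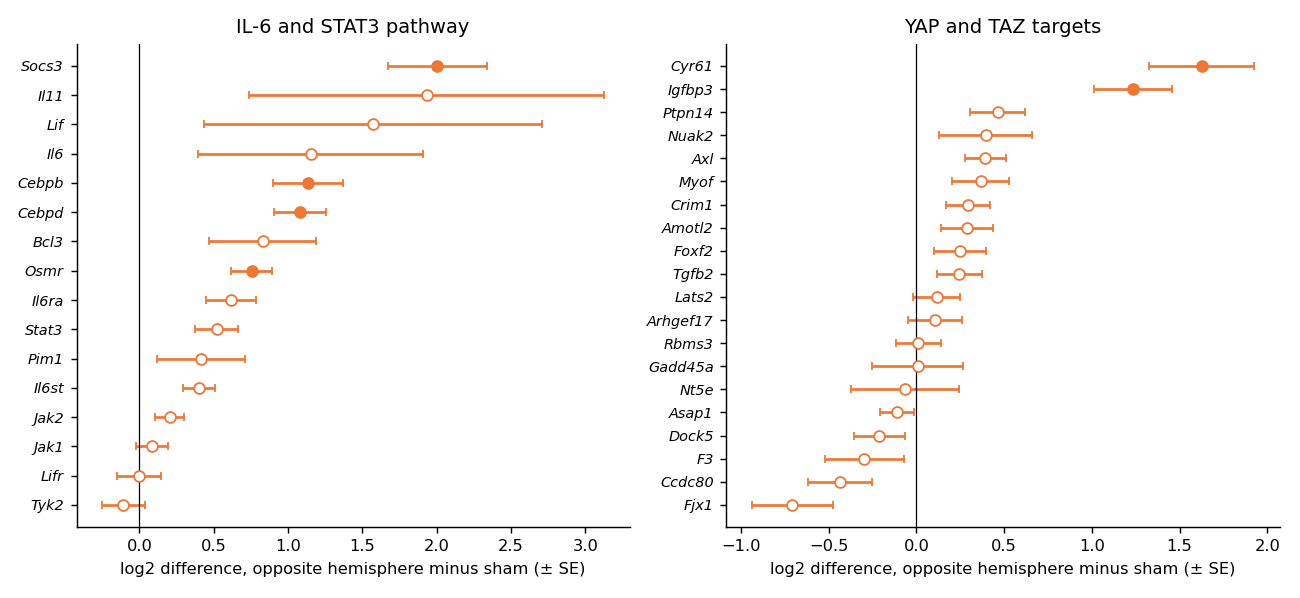
Log2 difference of each tested gene of the IL-6 and STAT3 list (left) and the YAP and TAZ list (right), opposite hemisphere minus sham, with its SE. Filled points passed an adjusted p of 0.05 in limma; 4 of 16 and 2 of 20 genes did, and most other points of the left list also lie above 0.

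The genes with the most similar pattern over all 15 libraries were sought among 12487 tested genes with a mean score of at least 50. The 3 closest to Ctgf were the AP-1 factor Fosl2 (Pearson r = 0.91), the Notch ligand Dll4 (0.89) and Adm, which encodes adrenomedullin (0.88). Fosl2 averaged 745.3 in triple therapy, 994 in dual therapy, 1483 in untreated tumour, 1625 in the opposite hemisphere and 795 in sham. Closest to Lrg1 were the TNF receptor Tnfrsf1a (0.96), the IL-4 receptor chain Il4ra (0.95) and Stat3 itself (0.93). Stat3 averaged 2182 in triple therapy, 2095 in dual therapy, 2608 in untreated tumour, 2305 in the opposite hemisphere and 1604 in sham, so its fold range was narrower than that of Lrg1. Closest to Cd14 were Socs3 (0.97), Il4ra (0.95) and the chemokine Ccl9 (0.94). Serpina3n was closest to Tnfrsf9, a receptor of activated lymphocytes (0.92), to the lectin Lgals3 (0.91) and to Rab32 (0.91). Tnfrsf9 averaged 55.7 in triple therapy, 73.3 in dual therapy, 193.7 in untreated tumour, 15.3 in the opposite hemisphere and 1 in sham. For Lcn2 the closest genes were Ikbkg, a subunit of the kinase that activates NF-kappaB (0.86), the peroxiredoxin Prdx5 (0.85) and Tnfrsf1a (0.82). These are descriptions over 15 libraries that share groups and scaling, with no test.

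Sequence upstream of the start sites is shown for Lrg1, Serpina3n and Lcn2, the genes of the group that had a promoter entry. RefSeq start sites (GRCm38.p6) were available for these genes, and the 250 bases before each start are printed 5′ to 3′ in the direction of the gene, at chr17:56121947-56122196 (minus strand), chr12:104406458-104406707 (plus strand) and chr2:32387740-32387989 (minus strand). The Lcn2 window overlaps the gene as placed above and lies inside its GENCODE M21 bounds, 32384633 to 32388252. The Lrg1 window overlaps its GENCODE M21 bounds, 56119678 to 56122001.
Lrg1: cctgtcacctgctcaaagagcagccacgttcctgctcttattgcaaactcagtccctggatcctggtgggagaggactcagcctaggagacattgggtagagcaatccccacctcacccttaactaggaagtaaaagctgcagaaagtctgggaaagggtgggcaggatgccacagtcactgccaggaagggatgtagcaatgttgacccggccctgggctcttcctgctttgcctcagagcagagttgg
Serpina3n: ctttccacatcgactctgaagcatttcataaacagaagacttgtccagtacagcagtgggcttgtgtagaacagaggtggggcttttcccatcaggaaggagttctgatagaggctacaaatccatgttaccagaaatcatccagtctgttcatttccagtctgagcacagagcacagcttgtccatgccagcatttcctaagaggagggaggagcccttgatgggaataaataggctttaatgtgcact
Lcn2: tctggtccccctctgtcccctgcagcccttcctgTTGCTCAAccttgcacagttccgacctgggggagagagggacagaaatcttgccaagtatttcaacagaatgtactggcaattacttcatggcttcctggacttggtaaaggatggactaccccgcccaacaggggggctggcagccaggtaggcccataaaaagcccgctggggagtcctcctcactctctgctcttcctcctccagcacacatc
The capitals mark the single match found, to the C/EBP motif TTGCNNAA, at positions -216 to -209 of Lcn2. Both strands were also searched for the STAT motif TTCNNNGAA, the TEAD motif GGAATG, the AP-1 motif TGANTCA and the NF-kappaB consensus, with no match in these windows. Over 32851 mouse promoter windows of the same length, 9.56% held the C/EBP motif, 7.02% the STAT motif, 12.6% the TEAD motif, 6.75% the AP-1 motif and 7.25% the NF-kappaB consensus. A match is a run of letters and not a bound site, and no match says nothing of the factor.

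Therapy was compared with untreated tumour in the tumour region, libraries that the choice of genes did not use as a contrast. Both comparisons share the untreated tumour libraries. Of the 5 genes, 3 fell under triple therapy, Ctgf, Lrg1 and Cd14, where 15% of all genes tested were called lower. Under dual therapy 2 of the 5 fell, Ctgf and Lrg1, where 10.2% of all genes were called lower. Neither therapy had a call for Serpina3n or Lcn2, and no gene of the 5 was called between triple and dual therapy, where 0.869% of all genes were. Libraries did not overlap for Ctgf, Lrg1 and Cd14 in either comparison, in the lower direction in which 22.5% of genes were separated under triple therapy and 15.8% under dual therapy.

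Ctgf fell by 1.23 log2 units under triple therapy (SE 0.17, 95% interval -1.60 to -0.87, adjusted p = 4.55e-05) and by 1.19 under dual therapy (SE 0.17, interval -1.56 to -0.83, adjusted p = 1.66e-04). Every treated library was below every untreated tumour library. The call held in all 15 alternatives run for each comparison, with adjusted p between 9.14e-06 and 0.00165 for triple and between 2.19e-05 and 0.00439 for dual therapy. Treated means were 1.32 times sham in triple and 1.36 times sham in dual therapy, against 3.13 times sham in untreated tumour; these ratios involve sham and carry no test.

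Lrg1 fell by 1.24 under triple therapy (SE 0.39, interval -2.06 to -0.43, adjusted p = 0.02) and by 1.28 under dual therapy (SE 0.39, interval -2.10 to -0.47, adjusted p = 0.0239). Its treated libraries scored 135 to 315 and the untreated tumour 434 to 538. The triple therapy call was lost without the first or the third triple therapy library (adjusted p = 0.0601 and 0.108) or the second untreated tumour library (0.0512). The dual therapy call was lost without the second or the third dual therapy library (adjusted p = 0.104 and 0.0664) or the second untreated tumour library (0.0563). Treated Lrg1 stayed 5.56 times sham in triple and 5.31 times sham in dual therapy, against 12.5 times in untreated tumour, again with no test.

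Cd14 fell by 1.14 under triple therapy (SE 0.36, interval -1.89 to -0.39, adjusted p = 0.0202), a call lost without the first or the third triple therapy library (adjusted p = 0.0721 and 0.0860) or the first untreated tumour library (0.0742). Under dual therapy its difference was -0.54 (SE 0.36, interval -1.29 to 0.21, adjusted p = 0.307). This SE pools all 5 groups. The SD of log2(score + 1) was 0.217 in dual therapy and 0.212 in untreated tumour, against 0.956 in the opposite hemisphere. None of 15 alternatives gave a call for Cd14 under dual therapy (adjusted p = 0.0855 to 0.541). The difference between triple and dual therapy was itself not called (-0.61, SE 0.36, interval -1.36 to 0.15, adjusted p = 0.461), so the therapies are not shown to differ in Cd14.

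Serpina3n differed from untreated tumour by -0.17 under triple therapy (SE 0.47, interval -1.15 to 0.82, adjusted p = 0.822) and by -0.74 under dual therapy (SE 0.47, interval -1.73 to 0.25, adjusted p = 0.282). Lcn2 differed by 0.04 under triple therapy (SE 0.44, interval -0.88 to 0.96, adjusted p = 0.954) and by -0.16 under dual therapy (SE 0.44, interval -1.08 to 0.76, adjusted p = 0.836). Every one of these intervals holds both a fall and a rise. Their widths use the spread pooled over all 5 groups, which was largest in the opposite hemisphere. There the SD of log2(score + 1) was 1.37 for Serpina3n and 1.19 for Lcn2, against at most 0.726 and 0.311 in the tumour region. A fall of the size estimated for Ctgf lay outside both intervals of Lcn2 and outside that of Serpina3n under triple therapy, but inside that of Serpina3n under dual therapy. Between triple and dual therapy the differences were -0.04 for Ctgf (interval -0.40 to 0.33, adjusted p = 0.946), 0.04 for Lrg1 (-0.78 to 0.86, adjusted p = 0.976), 0.58 for Serpina3n (-0.41 to 1.57, adjusted p = 0.620) and 0.20 for Lcn2 (-0.72 to 1.12, adjusted p = 0.880).

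**Figure D4:**
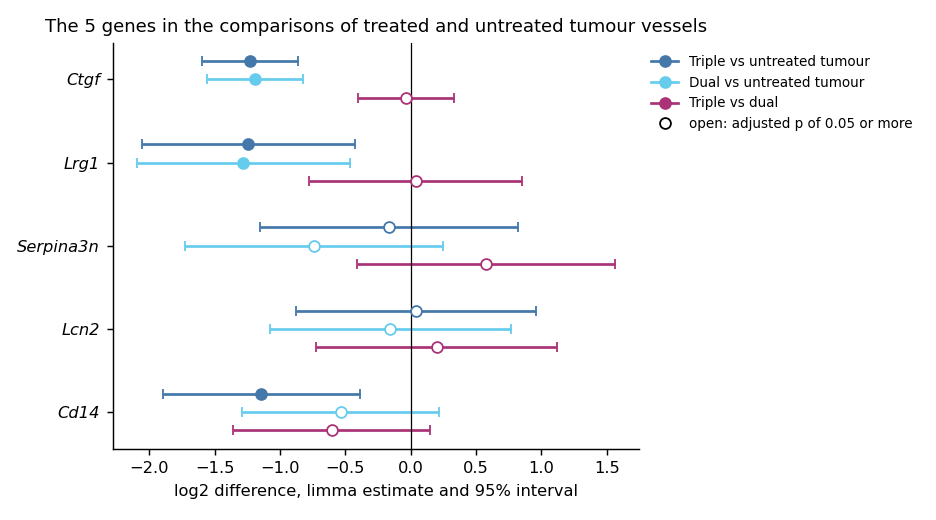
Log2 difference of each gene with its 95% interval in the 3 comparisons within the tumour region, on the log2(score + 1) scale. Filled points passed an adjusted p of 0.05 in limma; they are Ctgf and Lrg1 under both therapies and Cd14 under triple therapy.

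Markers of other cells were also called under therapy in the same libraries. All 10 proliferation markers fell under both therapies, and their sum was 1652 to 2158 in triple therapy, 1182 to 1965 in dual therapy and 6673 to 14725 in untreated tumour. Of 4 neutrophil markers tested, 3 fell under triple and 2 under dual therapy, and the 9 in the table summed to 72 to 108 in triple therapy, 105 to 156 in dual therapy and 177 to 348 in untreated tumour. Monocyte and macrophage markers summed to 9104 to 10527 in triple therapy, 5867 to 9765 in dual therapy and 6909 to 8186 in untreated tumour. Of these 12, 3 rose and 2 fell under triple therapy, and 2 rose and 0 fell under dual therapy. Lyz2, an abundant marker of the list, scored 3199 to 4889 in triple therapy against 3004 to 3879 in untreated tumour. Mrc1 scored 2102 to 3045 against 948 to 1277, and Cd163 430 to 546 against 143 to 185, in the same groups. Itgam, an integrin chain of myeloid cells, was among the genes that fell under triple therapy, at 142 to 257 against 328 to 425 in untreated tumour (adjusted p = 0.0203), a call lost without the third triple therapy library (adjusted p = 0.119), the third untreated tumour library (0.0792) or the variance trend (0.0508). Of 12 T and NK cell markers, 3 fell under triple and 0 under dual therapy, and they summed to 573 to 1201 in triple therapy, 877 to 1314 in dual therapy and 1473 to 1617 in untreated tumour.

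Markers of pericytes, smooth muscle, fibroblasts, neurons, astrocytes and red cells were mostly higher under therapy. Other lists were mixed. Endothelial markers had 6 of 15 up and 2 down under triple, and 7 up under dual therapy. Oligodendrocyte precursor markers had 2 of 6 up and 3 down under each. Oligodendrocyte markers had 2 of 8 up under triple and 1 under dual therapy. Microglial markers had 1 of 8 up and 1 down under triple, and 2 down under dual therapy. Of 6 ependyma and choroid plexus markers, 1 fell, under dual therapy. Of 10 pericyte markers, 9 rose under triple and 7 under dual therapy, and they summed to 52262 to 68806 in triple therapy and 46888 to 58445 in dual therapy, against 23984 to 28726 in untreated tumour. Of 8 smooth muscle markers, 6 rose under each therapy, with sums of 44328 to 48911 in triple therapy, 33239 to 44338 in dual therapy and 10810 to 26811 in untreated tumour. Of 9 fibroblast markers, 6 rose under each therapy and 1 fell under dual therapy, with sums of 16685 to 23293 in triple therapy, 13624 to 18624 in dual therapy and 11512 to 12764 in untreated tumour. Neuron markers had 9 of 10 up under triple and 7 of 10 under dual therapy, with sums of 8892 to 12810 in triple therapy, 5858 to 9683 in dual therapy and 2518 to 4656 in untreated tumour. Astrocyte markers had 5 of 10 up under triple and 4 of 10 under dual therapy, with sums of 39125 to 46555 in triple therapy, 20982 to 51448 in dual therapy and 17548 to 19255 in untreated tumour. Red cell markers had 6 of 7 up under triple and 7 of 7 under dual therapy, with sums of 3788 to 6356 in triple therapy, 3271 to 7372 in dual therapy and 1063 to 2697 in untreated tumour. The part of these cells in the therapy differences was not tested. After scaling to endothelial markers, the Ctgf difference was -1.49 under triple and -1.56 under dual therapy, and that of Lrg1 -1.5 and -1.65, where the medians of all genes were -0.28 and -0.38.

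The same lists were followed under therapy, where the share of each list called stands against 32.2% of all genes under triple therapy and 22.3% under dual therapy. YAP and TAZ targets were called in both directions: 6 rose and 4 fell of 20 under triple therapy, and 4 rose and 5 fell under dual therapy. Igfbp3 fell by 2.75 under triple therapy (adjusted p = 5.62e-07) and fell by 3.18 under dual therapy (adjusted p = 4.87e-07), at scores of 1273 to 1409 in triple therapy, 837 to 1119 in dual therapy and 6285 to 11223 in untreated tumour. Cyr61 fell by 2.31 under triple therapy (adjusted p = 1.95e-05) and by 1.17 under dual therapy (adjusted p = 0.00902), where the call was lost without the first untreated tumour library (adjusted p = 0.0562). Rbms3, an RNA-binding protein, rose by 0.83 under triple therapy (adjusted p = 1.01e-04) and by 0.77 under dual therapy (adjusted p = 4.80e-04). The dual therapy call of Rbms3 was lost after endothelial scaling (adjusted p = 0.0938). Under that scaling 3 targets rose and 5 fell with triple therapy, and 0 rose and 7 fell with dual therapy. Of the CCN family, Nov rose while Ctgf and Cyr61 fell: it scored 311 to 368 in triple therapy, 168 to 250 in dual therapy and 47 to 115 in untreated tumour, a rise of 2.37 under triple therapy (adjusted p = 5.11e-06) and of 1.64 under dual therapy (adjusted p = 3.67e-04).

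Of the 16 IL-6 and STAT3 genes, 5 fell and 1 rose under triple therapy, and 2 fell and 1 rose under dual therapy, against 32.2% and 22.3% of all genes called. After endothelial scaling 7 fell and 1 rose with triple therapy, and 7 fell and 0 rose with dual therapy. Socs3 fell by 1.70 under triple therapy (adjusted p = 8.13e-04) and by 1.29 under dual therapy (adjusted p = 0.00958), at 171 to 301 in triple therapy, 270 to 328 in dual therapy and 633 to 826 in untreated tumour. Cebpd fell by 0.96 under triple therapy (adjusted p = 4.92e-04). Bcl3, a nuclear partner of NF-kappaB, fell by 1.23 under triple therapy (adjusted p = 0.0141), a call lost without the third triple therapy library (adjusted p = 0.0530). Its fall of 1.03 under dual therapy (adjusted p = 0.0492) was lost without any 1 of the 6 libraries, with adjusted p up to 0.126. Lifr, the receptor of leukaemia inhibitory factor, rose by 0.98 under triple therapy (adjusted p = 7.09e-05) and by 0.74 under dual therapy (adjusted p = 0.00160), and the dual therapy call was lost after endothelial scaling (adjusted p = 0.104).

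Receptors and partners of the 5 proteins were split. Lrp1 rose by 1.28 under triple therapy (adjusted p = 2.41e-06) and by 0.66 under dual therapy (adjusted p = 0.00181, but 0.267 after endothelial scaling), and was the one gene of these lists called higher in triple than in dual therapy (0.62, adjusted p = 0.0335). That call was kept when the first dual therapy library was left out and lost without any other single library of these groups, with adjusted p up to 0.164. It was also lost after endothelial scaling (adjusted p = 0.132), quantile normalisation (0.0527), with only these 2 groups (0.051) or without the trend (0.118). The integrin chains Itgb3 and Itga5, which bind matrix and CCN proteins, fell under both therapies: Itgb3 by 1.51 under triple and 1.31 under dual therapy (adjusted p = 8.04e-05 and 6.37e-04), and Itga5 by 1.03 and 1.10 (adjusted p = 2.88e-04 and 3.86e-04). In all, 4 of 14 rose and 4 fell under triple therapy, and 2 rose and 3 fell under dual therapy. After endothelial scaling 2 rose and 4 fell with triple therapy, and 0 rose and 6 fell with dual therapy. Of 20 TGF-beta and BMP genes, the pathway of Lrg1 and Ctgf, 8 rose and 1 fell under triple therapy and 9 rose and 0 fell under dual therapy. That balance depended on scaling, since 6 rose and 3 fell with triple therapy and 1 rose and 5 fell with dual therapy after endothelial scaling. Tgfbr3, or betaglycan, rose by 0.83 under triple therapy (adjusted p = 2.12e-04) and by 0.74 under dual therapy (adjusted p = 0.00110). Smad7, an inhibitor of TGF-beta signalling, rose by 0.85 under triple therapy (adjusted p = 1.40e-04) and by 0.56 under dual therapy (adjusted p = 0.00678, but 0.327 after endothelial scaling).

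Acute-phase genes, the class of Serpina3n, Lcn2 and Lrg1, had 3 of 12 up and 1 down under triple therapy and 1 up and 2 down under dual therapy. Timp1, an inhibitor of metalloproteinases that is also in the reactive astrocyte list, fell by 1.87 under triple therapy (adjusted p = 0.0179) and by 2.33 under dual therapy (adjusted p = 0.00725). The triple therapy call was lost without the first or the third triple therapy library or the first untreated tumour library (adjusted p = 0.0543, 0.0633 and 0.104). Cp rose by 0.54 under triple therapy (adjusted p = 0.00427, but 0.174 after endothelial scaling). In the reactive astrocyte list 4 of 11 rose and 2 fell under triple therapy, and 2 rose and 2 fell under dual therapy. Its S1pr3, a sphingosine-1-phosphate receptor, rose by 1.11 under triple therapy (adjusted p = 5.06e-06) and its Cd44, a hyaluronan receptor, fell by 1.02 (adjusted p = 0.00758). In the lipopolysaccharide pathway of Cd14, 1 of 16 rose and 1 fell under triple therapy and 1 rose under dual therapy. Tlr4 scored 360 to 409 in triple therapy, 280 to 460 in dual therapy and 399 to 489 in untreated tumour, with no call in either comparison. Of 13 endothelial activation genes 2 rose and 2 fell under triple therapy and 1 rose under dual therapy, and Cxcl12 rose by 0.96 under triple therapy (adjusted p = 0.00117) and by 1.19 under dual therapy (adjusted p = 4.57e-04). None of the 3 Serpina3 cluster genes tested was called in either comparison. Endothelial scaling shifted these counts downwards too: with dual therapy 0 acute-phase genes rose and 2 fell, 0 reactive astrocyte genes rose and 3 fell, and 1 gene rose and 3 fell in both the lipopolysaccharide and the endothelial activation list. With triple therapy 1 acute-phase gene rose and 1 fell, 3 reactive astrocyte genes rose and 3 fell, 0 lipopolysaccharide pathway genes rose and 2 fell, and 1 endothelial activation gene rose and 3 fell.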

How the data were processed

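Total RNA of brain microvessels, 100 ng per library, was made into libraries with a stranded total RNA kit, per the labels' protocols. The submitters' processing notes name STAR 2.4.0a, featureCounts 1.4.5-p1 and DESeq2 as tools, and GRCm38 (mm10) as the build. No source used here gives the strand setting. The authors deposited 1 normalised score per gene and library, a whole number that is not a read count. Reads per library were estimated here from the gaps between scores, at 0.656 to 1.86 units per read, giving 6365690 to 18324229 reads.

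Scores were transformed to log2(score + 1), so fold changes of low genes are understated. The tests covered 19668 of 27174 genes, those that reached a score of 10 in 3 or more libraries. limma 3.58.1 (R 4.3.3) was fitted to all 15 libraries with 5 group means and a trend of variance on mean. Each SE and interval therefore pools the spread of a gene over the 5 groups, including groups outside the comparison. Tests were two-sided, with Benjamini-Hochberg adjustment over all tested genes and a threshold of 0.05. The procedure was tested on counts simulated for dual therapy against untreated tumour, with the same spread setting in all groups. That simulation did not model the wider spread of Lrg1, Serpina3n, Lcn2 and Cd14 in the opposite hemisphere. From each pathway list, the text names up to 4 called genes with the lowest adjusted p, or 2 abundant genes where none was called, and shows fewer where space required. The 3 genes most correlated with each member were also named. The 5 genes and the lists were chosen with earlier results of these data known. Cd14 and Ctgf had no promoter entry used here. Exon structure came from GENCODE M21.

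Alternatives were other pseudocounts, no filter, quantile normalisation, scaling to endothelial markers, only the groups compared, no variance trend, library quality weights, a replicate block, and each library left out in turn.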

Additional observations from a re-analysis of the deposited data

How the results depend on the processing

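No called difference of the 5 genes reversed direction under the alternatives run. Of 750 values of the 5 genes under alternatives, 724 kept their sign. Ctgf kept its calls under both therapies throughout. The Lrg1 call under dual therapy was lost without a variance trend (-1.28, adjusted p = 0.0755) and with library quality weights (-1.12, adjusted p = 0.0913), within adjusted p of 0.00595 to 0.104 over 15 alternatives, and its difference was -1.56 to -1.06 when 1 library was left out. Under triple therapy it was lost without the trend (-1.24, adjusted p = 0.0629, range 0.00602 to 0.108), with -1.57 to -0.96 when 1 library was left out. The Cd14 call under triple therapy was lost without the trend (-1.14, adjusted p = 0.0515, range 0.00628 to 0.0860), with -1.39 to -0.98 when 1 library was left out. The cause was not tested.

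Counts of calls over all genes moved more. The opposite hemisphere against sham had 85 calls, against 27 after endothelial scaling, 0 with only those groups (3134 at an unadjusted p under 0.05), 8 without the trend and 631 with quality weights. With 1 library left out it had 22 to 63: 22, 52 and 63 without the first, the second and the third opposite hemisphere library, and 43, 28 and 30 without the first, the second and the third sham library. Triple against dual therapy had 171 calls, against 0 after endothelial scaling (2364 at an unadjusted p under 0.05), 31 with only those groups, 14 without the trend and 327 with weights; with 1 library left out, 0 to 274, the 0 without the first triple or the second dual therapy library. Dual therapy against untreated tumour had 4377, against 2205 with only those groups and 2798 to 4576 with 1 library left out, lowest without the first untreated tumour library.

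Untreated tumour minus the opposite hemisphere was -0.25 for Ctgf and 0.18 after endothelial scaling. Against sham, the same scaling gave 1.99 for Ctgf and 3.97 for Lrg1 in untreated tumour, against 1.64 and 3.62 as reported. Replicate numbers were treated as not pairing the samples. Deviations of same-numbered libraries correlated by -0.13 to 0.103, and such low values cannot exclude shared mice or batches. Untreated tumour and opposite hemisphere libraries both came from mice given control IgG, and the SEs of their differences assume separate mice. Each of the 6 libraries correlated best with its own number in 2 comparisons, dual therapy against untreated tumour and the opposite hemisphere against sham. With the replicate block, calls numbered 4353 for dual and 6309 for triple therapy against untreated tumour, 169 for triple against dual therapy, 102 for the opposite hemisphere against sham and 8311 for untreated tumour against the opposite hemisphere, and no call of the 5 genes changed. In sham, Cd14, Serpina3n, Lcn2 and Lrg1 rest on an estimated 10 to 61 reads, which limits their folds against sham.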
